A study of Homo sapiens with 2 samples.

Results

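The set described here holds 52 genes, 33 receptors and 19 ligands, chosen by name as receptor tyrosine kinases and their ligands, with the FGF, IGF and EPH receptors left out. All 52 were found among the 57158 rows of the table, each under 1 identifier, and they were read beside 19344 protein-coding genes. Receptor tyrosine kinases are surface receptors whose inner part phosphorylates tyrosines when a ligand brings receptor chains together, and the phosphates recruit adaptors that start the RAS, PI3 kinase and phospholipase C branches. In the developing liver, hepatoblasts are known to receive hepatocyte growth factor through MET, ligands of the EGF receptor, and insulin-like signals, while much of the ligand is made by the mesenchyme and endothelium around them.

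The cells were liver progenitors made from CyT49, a human embryonic stem cell line. They had reached definitive endoderm on day 2 and then spent 6 days in suspension in RPMI with 50 ng/ml BMP4, 10 ng/ml FGF2 and 0.2% FBS, with fresh medium each day, before RNA was taken on day 8. Both libraries belong to this 1 group, and no untreated, earlier or endoderm sample was analysed here, so what follows are levels and not changes. Separate cultures are not mentioned for the libraries in the labels, and over 790 single-exon genes they differed by 1.08 times the variance that read counting alone gives. They were therefore counted as 1 sample, no test between conditions was possible, and every value is given for library 1 and then library 2.

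Values are RPKM, reads per kilobase of gene scaled to the reads of the library, and any value under 0.5 was listed as 0.1, called the floor below. The step between values corresponded to totals of 25183035 and 25264732 reads, at which 0.5 RPKM stood for 12.6 reads on each kilobase of a gene. A gene at the floor may still be transcribed below that limit. Detected means a level of at least 1 RPKM in library 1 and in library 2 alike. The liver label matched its markers, since 17 of 17 hepatoblast genes reached 10 RPKM in both libraries, the lowest being PROX1 at 14.6 and 14.7. Markers of other cells that such a culture might hold were detected in part. Of 7 cholangiocyte markers 4 were detected, led by SPP1 at 17.3 and 17.5 RPKM, with KRT7 at the floor, and their summed level was 45.5 and 47.4 RPKM. Of 13 mature hepatocyte markers 5 were detected, with ALB highest at 6.84 and 6.53 RPKM and CYP3A4 at the floor, and the sum was 20.3 and 19.6. Of 11 endothelial markers 2 were detected, EGFL7 at 15.3 and 15.4 RPKM and ESAM at 5.52 and 5.99, with CDH5 and VWF at the floor, and their summed level was 22.1 and 22.3 RPKM. Of 13 blood and macrophage markers 3 were detected, none above 3.66 RPKM, with PTPRC and CD34 at the floor, and the sum was 7.50 and 6.89. Of 17 stellate and mesenchymal markers 6 were detected, led by VIM at 94.4 and 95.8 RPKM, with WT1, LHX2 and DES at the floor, and the sum was 140.2 and 142 RPKM. In bulk RNA, fewer cells of a type and less RNA per cell cannot be told apart.

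Of the 52 genes, 32 (61.5%) were detected, beside 59.8% of all protein-coding genes. Of the 52, 11 (21.2%) reached 10 RPKM in both libraries, beside 20.2%, and 19 (36.5%) lay at the floor in both, beside 33.8%. HBEGF, above the floor in library 1 alone, made up the rest. As a set the genes thus lay near the background, with a median of 2.40 RPKM against 2.42 over protein-coding genes. Among receptors 19 of 33 were detected, from KDR at 1.60 and 1.61 RPKM to TYRO3 at 23.6 and 22.6, and the other 14 were at the floor in both libraries. Among ligands 13 of 19 were detected, from PDGFC at 1.40 and 1.16 RPKM to GAS6 at 25.3 and 25.7. No receptor and no ligand other than HBEGF lay between the floor and 1 RPKM.

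**Figure D1:**
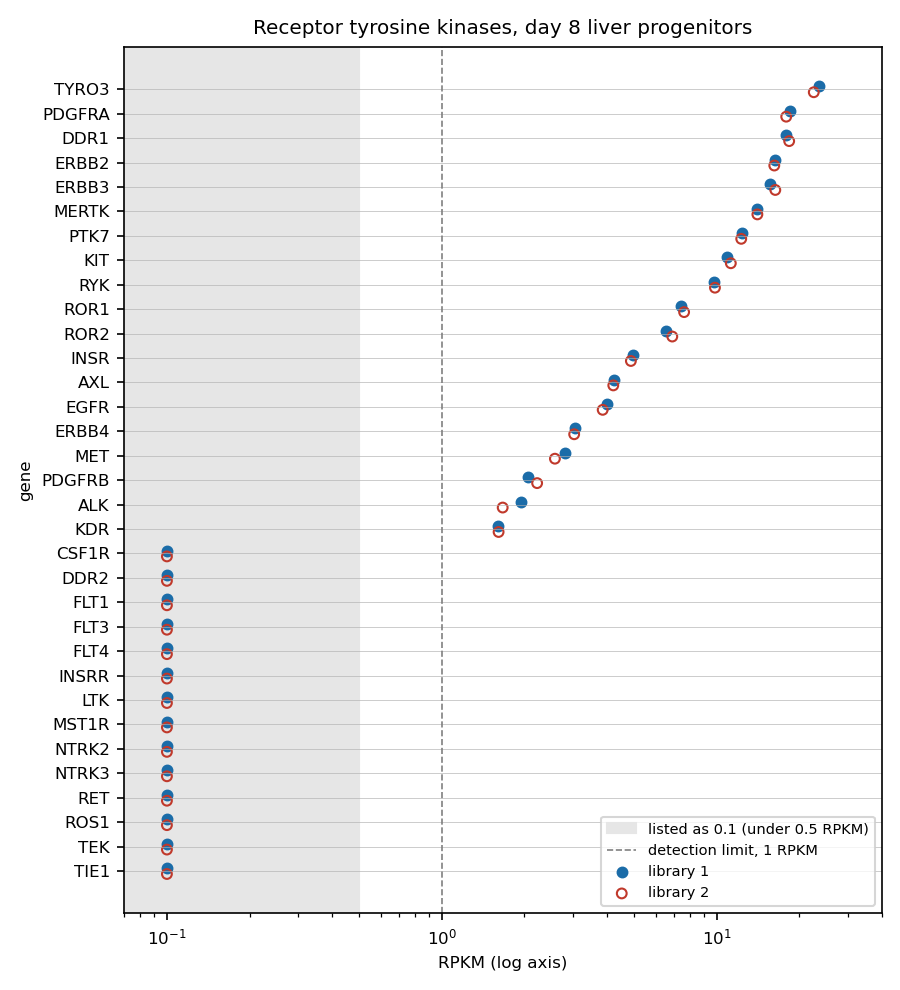
RPKM on a log axis of the 33 receptors in library 1 (filled) and library 2 (open), with the floor shaded and the 1 RPKM limit dashed. The 19 detected receptors run from KDR at 1.61 to TYRO3 at 23.1 RPKM on average, and the other 14 are listed as 0.1 in both libraries.

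In the order of levels, TYRO3 led the receptors, followed by PDGFRA, DDR1, ERBB2, ERBB3, MERTK, PTK7 and KIT, all at 10 RPKM or more in both libraries. RYK, ROR1, ROR2, INSR, AXL, EGFR, ERBB4, MET, PDGFRB, ALK and KDR followed. To judge neighbours in this order, the difference between libraries was taken over protein-coding genes of like level. Its 95th percentile was 0.12 log2 at 10 to 30 RPKM, 0.16 at 5 to 10, 0.23 at 2 to 5 and 0.37 at 1 to 2. That percentile comes from libraries counted as 1 sample, so it does not cover differences between cultures. Nor does it cover errors particular to a gene, such as those from copies or overlapping genes. Of the 18 neighbouring receptor pairs 11 lay further apart than that percentile. The 7 that did not were PDGFRA and DDR1, ERBB2 and ERBB3, INSR and AXL, AXL and EGFR, ERBB4 and MET, PDGFRB and ALK, and ALK and KDR, so these have no order here. Of the 12 neighbouring ligand pairs 6 were further apart, and the 6 without an order were VEGFB and VEGFA, PDGFA and MST1, NRG1 and VEGFC, VEGFC and PDGFB, AREG and PDGFD, and PDGFD and KITLG. Over the 32 detected genes the median difference between libraries was 0.038 log2, and none passed the percentile of its level. The largest was PDGFC, 1.2 times higher in library 1, and 18 genes were higher in library 1 and 14 in library 2.

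**Figure D2:**
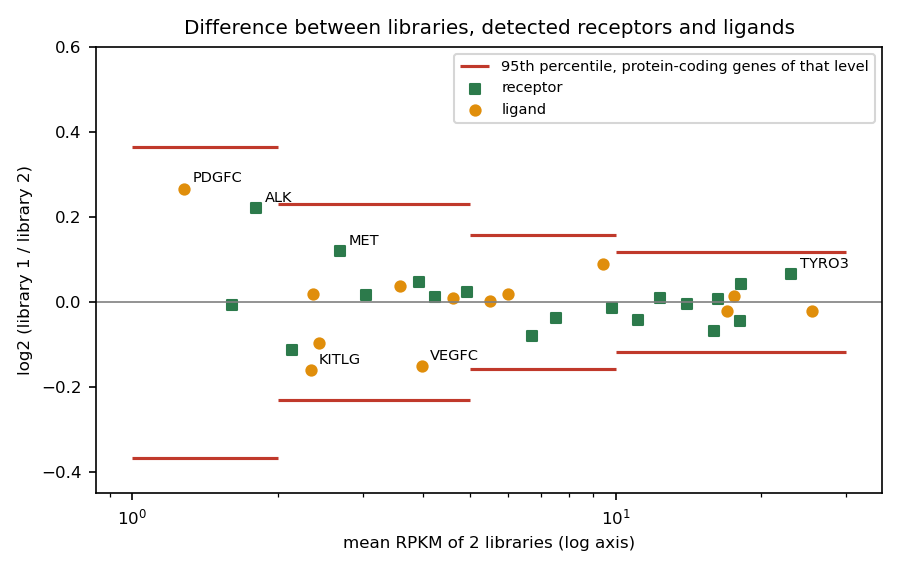
Log2 ratio of library 1 to library 2 for the 32 detected genes against their mean RPKM (log axis), with red lines at the 95th percentile of the absolute ratio over protein-coding genes of that level. All 19 receptors and 13 ligands lie within the lines, which narrow from 0.37 to 0.12 log2 as the level rises.

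The ErbB family binds EGF-like ligands and the neuregulins. All 4 receptors and 2 of the 7 ligands in the set were detected, beside 59.8% of all protein-coding genes. ERBB2, which has no ligand of its own and works as a partner of the others, stood at 16.3 and 16.2 RPKM (ENSG00000141736.9, chromosome 17, 37844167 to 37886679). ERBB3, a neuregulin receptor that signals through its partner's kinase, stood at 15.6 and 16.4 (ENSG00000065361.10, chromosome 12, 56470583 to 56497289). EGFR, the receptor of EGF itself, was lower at 3.98 and 3.85, and ERBB4, a neuregulin receptor with an active kinase, stood at 3.07 and 3.03. The high pair and the low pair did not overlap between libraries. Of the 7 ligands in the set only NRG1 and AREG were detected. NRG1, a ligand of ERBB3 and ERBB4, stood at 4.62 and 4.60 RPKM, so that ERBB3 was 3.47 times and ERBB4 0.662 times its level. Outside the set, NRG2 stood at 1.33 and 1.44 RPKM, and NRG3, NRG4 and EPGN were at the floor in both libraries. AREG, amphiregulin, a ligand of EGFR, stood at 2.35 and 2.51. Its annotated copy AREGB stood at 2.21 and 2.32, and reads cannot be assigned with certainty between near-identical copies. HBEGF was listed at 0.711 RPKM in library 1 and at the floor in library 2, while EGF, TGFA, EREG and BTC were at the floor in both. ERBB2 overlaps PGAP3 (7.18 and 7.23 RPKM) and MIEN1 (6.31 and 7.08) on the other strand, and ERBB3 overlaps a read-through gene on its own strand, ENSG00000257411, at 54.9 and 58.3 RPKM. EGFR overlaps EGFR-AS1 on the other strand, at 1.25 and 1.23 RPKM. Whether the counting used strand is not given in the sources used here, so part of the reads at ERBB2 and EGFR could not be told apart. Strand cannot separate ERBB3 from the read-through gene, so part of the reads there could not be told apart either way.

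ERBB3 is one of the receptors known as pseudokinases, whose kinase fold departs from the usual catalytic residues, and its level beside the active members made it worth showing the bases concerned. The stretch below runs, in the GENCODE transcripts on GRCh37, from the codons of the catalytic loop triplet, usually His-Arg-Asp, to those of the metal-binding triplet, usually Asp-Phe-Gly, and both triplets are in capitals. EGFR, ERBB2 and ERBB4 carry both triplets, and PTK7, RYK, ROR1 and ROR2, the Wnt-binding or Wnt-linked receptors, are shown with ERBB3 because theirs differ.
EGFR: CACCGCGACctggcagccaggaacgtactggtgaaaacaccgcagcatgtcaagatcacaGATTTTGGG
ERBB2: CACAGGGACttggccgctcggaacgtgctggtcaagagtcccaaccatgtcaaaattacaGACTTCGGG
ERBB4: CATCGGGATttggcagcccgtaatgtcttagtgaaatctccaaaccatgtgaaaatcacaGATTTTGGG
ERBB3: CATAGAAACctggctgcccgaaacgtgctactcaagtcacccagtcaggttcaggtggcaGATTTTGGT
PTK7: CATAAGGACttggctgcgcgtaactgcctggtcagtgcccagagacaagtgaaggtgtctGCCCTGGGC
RYK: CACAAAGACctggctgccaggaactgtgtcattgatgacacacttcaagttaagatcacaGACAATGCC
ROR1: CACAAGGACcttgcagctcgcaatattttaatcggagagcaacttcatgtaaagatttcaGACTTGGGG
ROR2: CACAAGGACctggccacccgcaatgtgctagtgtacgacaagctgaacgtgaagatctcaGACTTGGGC
Positions count from 1 at the first base shown, and each change names the EGFR base, the position and the base of the other gene. In ERBB3 (exon 21, chr12:56491602-56491670) the change G7A turns the codon of the catalytic aspartate into one for asparagine. In PTK7, ROR1 and ROR2 the changes C4A, G5A and C6G put a lysine codon in place of the arginine of the first triplet. In RYK the changes C4A, G5A and C6A do the same. In PTK7 (exon 18, chr6:43126615-43126683) A62C removes the metal-binding aspartate and T64C with T66G the phenylalanine. In RYK (exons 14 and 15, chr3:133894573-133894802, minus strand) T64A with T65A changes the phenylalanine codon and G68C the glycine codon. In ROR1 (exon 9, chr1:64643561-64643629) and ROR2 (exon 9, chr9:94486871-94486939, minus strand) T66G turns the phenylalanine codon into one for leucine. EGFR is shown from exon 21 (chr7:55259445-55259513), ERBB2 from chr17:37881335-37881403 and ERBB4 from chr2:212295724-212295792, minus strand. The stretch was found in all 33 receptors, in RYK by a search of all reading frames of its transcript because the annotated frame on GRCh37 did not give it. Of the 33, 28 held a His and an Asp at the outer positions of the first triplet and the full second triplet. Those 28 were 14 detected receptors and the 14 at the floor. The 5 that departed from it were all detected and stood at 6.53 RPKM or more in both libraries. This count was chosen after the values were seen and carries no test.

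The 5 receptors with altered triplets were of middle to high level. PTK7, a Wnt co-receptor of planar cell polarity, stood at 12.4 RPKM in library 1 and 12.3 in library 2 (ENSG00000112655.11, chromosome 6, 43044045 to 43129457). RYK, a receptor that binds Wnt proteins through a WIF domain, stood at 9.77 and 9.87, although a processed copy, RYKP1, was listed at 1.28 and 1.94. ROR1 stood at 7.42 and 7.62 and ROR2 at 6.53 and 6.90, and both are known to bind WNT5A. WNT5A itself was low, at 1.79 and 1.70 RPKM, and WNT5B was at the floor. Thus each of these Wnt-linked receptors lay above the level of WNT5A in both libraries.

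The TAM receptors TYRO3, AXL and MERTK bind GAS6 and protein S (PROS1), which link them to exposed phosphatidylserine on dying cells, and here both receptors and ligands were present. TYRO3 stood at 23.6 and 22.6 RPKM (ENSG00000092445.7, chromosome 15, 41849873 to 41875787), above 91.8% of protein-coding genes. MERTK followed at 14.0 and 14.1 and AXL at 4.25 and 4.21, so the 3 did not overlap. GAS6 was the highest of the 19 ligands at 25.3 and 25.7 RPKM (ENSG00000183087.9, chromosome 13), 1.10 times TYRO3, 1.82 times MERTK and 6.04 times AXL. PROS1, a ligand from outside the set that the liver secretes, stood at 16.1 and 16.2. The processed copy TYRO3P was listed at 1.42 and 1.46 RPKM and GAS6-AS1, on the other strand, at 0.517 and 0.752.

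Receptors of the PDGF and KIT class carry immunoglobulin-like domains and a split kinase domain. PDGFRA, the receptor of PDGF-A, PDGF-B and PDGF-C chains, stood at 18.5 and 17.9 RPKM (ENSG00000134853.7, chromosome 4, 55095447 to 55164412). KIT, the stem cell factor receptor, which definitive endoderm is also known to carry, stood at 10.9 and 11.3. Of 10 pluripotent stem cell markers 3 were detected, ZFP42, DNMT3B and DPPA4, and the sum was 29.5 and 28.2 RPKM. POU5F1, NANOG and SOX2 were at the floor in both libraries. PDGFRB, a pericyte and stellate cell receptor, was low at 2.06 and 2.22. FLT3 and CSF1R, receptors of blood progenitors and macrophages, were at the floor, CSF1R although RPL7P1, a ribosomal protein pseudogene inside it on the other strand, was listed at 500.5 and 505.6 RPKM. All 5 ligands of this class were detected and all stood under 10 RPKM. PDGFA stood at 6.04 and 5.96 RPKM, PDGFB at 3.62 and 3.53, PDGFD at 2.39 and 2.36, PDGFC at 1.40 and 1.16, and KITLG, stem cell factor, at 2.21 and 2.47. PDGFRA was 3.03 times PDGFA, 5.09 times PDGFB and 14.2 times PDGFC, and KIT was 4.74 times KITLG. PDGFRB, in contrast, lay below PDGFB, which was 1.67 times its level. PDGFRA is also used as a mesenchymal marker, and the mesenchymal genes listed above were detected in 6 of 17 cases. What part of the PDGFRA signal came from such cells was not tested.

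In the VEGF group all 4 ligands and 1 of the 3 receptors in the set were detected, beside 59.8% of all protein-coding genes. VEGFA, the main endothelial growth factor, stood at 16.9 and 17.1 RPKM (ENSG00000112715.16, chromosome 6), VEGFB at 17.6 and 17.5, and PGF, placental growth factor, at 9.70 and 9.12. VEGFC, the lymphatic factor, stood at 3.77 and 4.18. Of the 3 receptors, KDR, the main VEGFA receptor of endothelium, was detected at 1.60 and 1.61, and FLT1 and FLT4 were at the floor in both libraries. VEGFA was thus 10.6 times and VEGFC 2.47 times KDR. NRP1, a co-receptor of VEGFA that many cell types carry, stood at 4.71 and 4.74. The angiopoietin receptors TEK and TIE1 were also at the floor, while ANGPT1, the agonist of TEK, stood at 4.35 and 4.43. FLT1, FLT4, TEK and TIE1 are known mainly from endothelium, of whose 11 markers 2 were detected, EGFL7 and ESAM. Whether endothelial cells bear on the levels of this group was not tested.

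MET and MST1R are the receptors of hepatocyte growth factor (HGF) and of macrophage-stimulating protein (MST1), and in each pair 1 side was at the floor. MET stood at 2.80 and 2.58 RPKM (ENSG00000105976.10, chromosome 7, 116312250 to 116438431) and HGF at the floor. MST1, which hepatocytes secrete into plasma, stood at 5.49 and 5.48, and MST1R was at the floor. MST1 lies across from APEH (34.65 and 34.97 RPKM) and overlaps a noncoding gene on its own strand, ENSG00000259970 (7.30 and 6.75), which strand cannot separate. MST1 also has the copies MST1L (6.67 and 6.64) and MST1P2 (8.03 and 8.18), so its level is uncertain. Both ligands are secreted as inactive precursors and cut by serine proteases. Of these, hepsin (HPN) stood at 31.3 and 30.9 RPKM and matriptase (ST14) at 13.5 and 13.3, while the plasma activator HGFAC was at the floor. Their inhibitors SPINT1 and SPINT2 stood at 58.4 and 59.2 and at 64.7 and 64.3, above both proteases.

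Among the other receptors, DDR1, a collagen receptor of epithelia, stood at 17.8 and 18.4 RPKM (ENSG00000204580.7, chromosome 6, 30844198 to 30867933), and its mesenchymal relative DDR2 was at the floor. The insulin receptor INSR stood at 4.96 and 4.88 and the related INSRR, an alkali sensor, was at the floor. IGF2, which also binds INSR, stood at 131 and 132 RPKM, and INS was uneven near the floor at 0.562 and 1.27. ALK, a receptor of the nervous system, stood at 1.94 and 1.67 RPKM and its relative LTK was at the floor, and of 12 neural markers 2 were detected, TUBB3 and NES, with a sum of 56.9 and 57.6 RPKM. Midkine (MDK) and pleiotrophin (PTN), for which ALK has been described as a receptor, stood at 515 and 522 and at 6.98 and 6.88. ALKAL1 and ALKAL2, ligands of ALK and LTK, were at the floor in both libraries. Neither library had the neurotrophin receptors NTRK2 and NTRK3, the GDNF family receptor RET or ROS1 above the floor. The RET co-receptors GFRA1 and GFRA2 were at the floor as well, while NRTN, a ligand of that system, stood at 4.41 and 4.43 and NELL2, described as a ROS1 ligand, at 5.08 and 5.24. ALK also lies across from CLIP4, at 2.33 and 2.22 RPKM on the other strand.

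**Figure D3:**
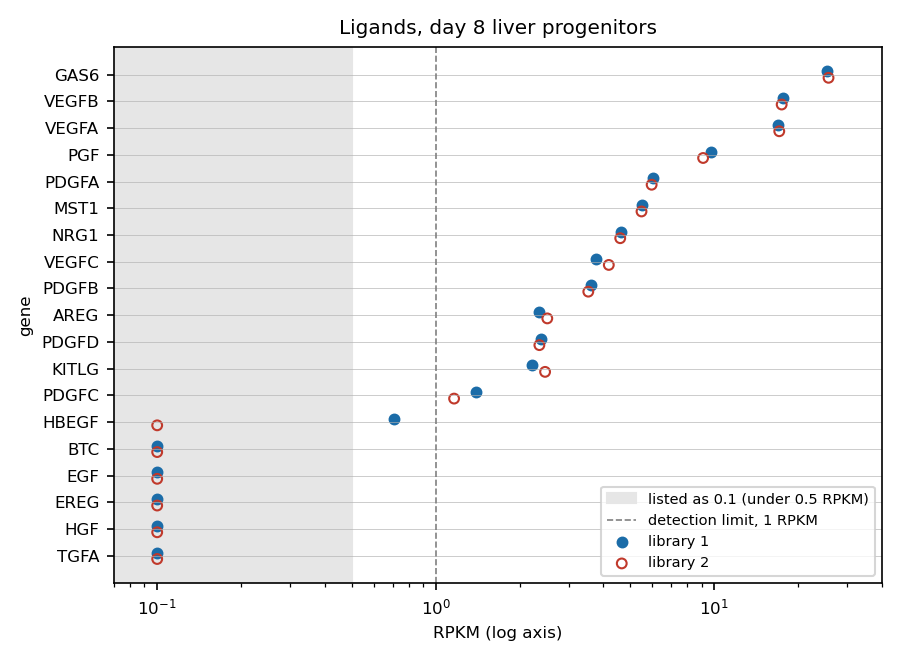
RPKM on a log axis of the 19 ligands in library 1 (filled) and library 2 (open), with the floor shaded and the 1 RPKM limit dashed. GAS6, VEGFB and VEGFA are above 10 RPKM, HBEGF is above the floor in library 1 only, and 5 ligands are listed as 0.1 in both libraries.

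Taken pair by pair, 28 textbook ligand and receptor pairs could be formed within the set. Both genes were detected in 14 of them, where 59.8% of single protein-coding genes were detected. No such share was computed for pairs of other genes. In 9 pairs the receptor alone was detected, namely MET without HGF, 5 pairs of EGFR and 3 of ERBB4. In 5 the ligand alone was detected, namely MST1 without MST1R, the 3 ligands of FLT1, and VEGFC with FLT4. No pair lacked both, but pairs whose ligand lies outside the set were not counted. Of such pairs, ALKAL1 and ALKAL2 with LTK were at the floor on both sides. Of the 14 complete pairs, the receptor was higher in both libraries in 6 and the ligand in 8. Among the 6 is EGFR with AREG. The near-identical copy AREGB, at 2.21 and 2.32 RPKM, was not added to AREG, so the order of that pair is uncertain. Among the 8, PDGFD and PDGFRB lay closer than the 95th percentile of the difference between libraries at their level and so have no order. Pairs share genes, since EGFR stands in 6 of the 28, so they are not independent, and transcript levels do not give the amounts of protein at the surface.

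**Figure D4:**
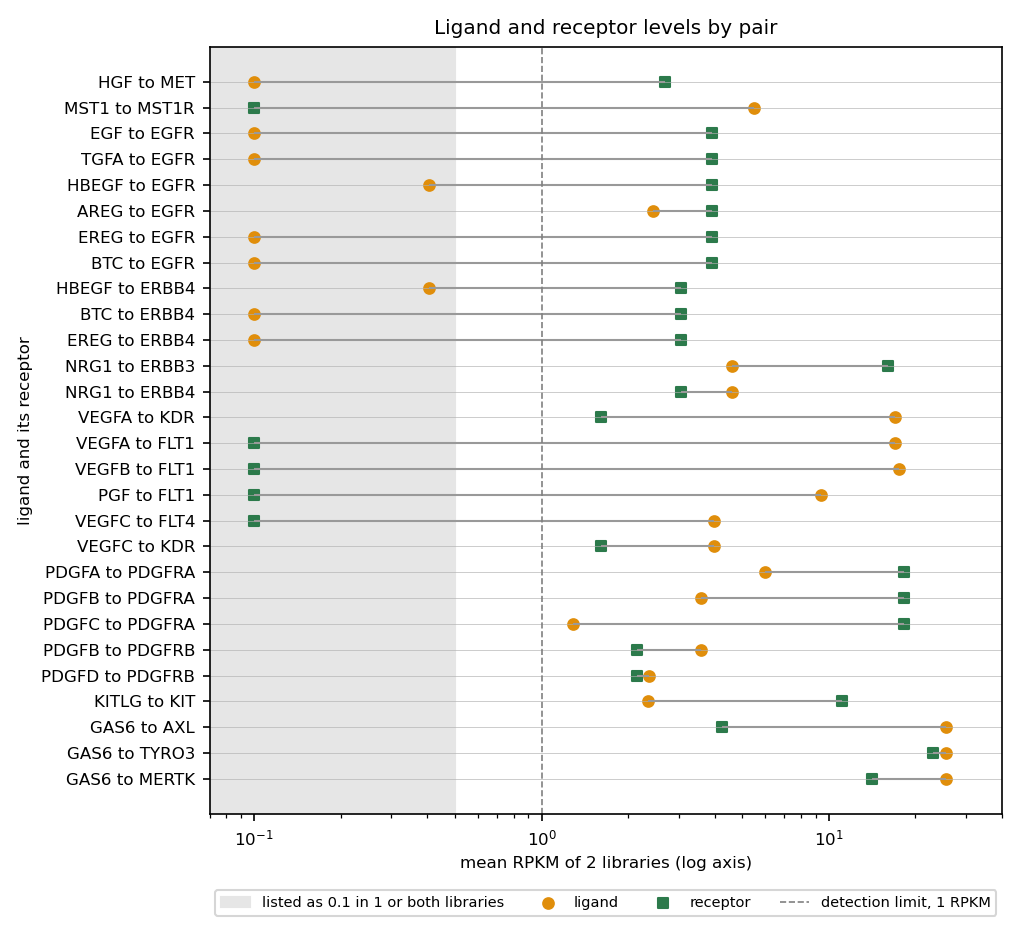
Mean RPKM of the 2 libraries (log axis) for the ligand (circle) and the receptor (square) of each of 28 pairs, joined by a line. The EGFR and MET pairs have their ligand in the shaded range except AREG, the FLT1 and FLT4 pairs have their receptor there, and the GAS6 pairs lie to the right of the detection limit on both sides.

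The signalling parts around the receptors were counted from lists made for this purpose, to be read beside the 59.8% of protein-coding genes that were detected. All 34 adaptors and relay proteins were detected, with SHC1, the phosphotyrosine adaptor, highest at 50.8 and 48.8 RPKM, and GRB2, which brings SOS to the membrane, at 19.8 and 20.1. PTPN11, the phosphatase that passes the signal to RAS, stood at 13.3 in both libraries, and MAPK3, a kinase at the end of the RAS branch, at 18.5 and 18.2. Of 18 genes that process ligands 15 were detected. The sheddases of ErbB ligands ADAM10 and ADAM9 stood at 15.3 and 15.0 and at 14.2 and 13.8 RPKM, and ADAM12 was at the floor. Of 21 feedback genes and inhibitors 19 were detected. ERRFI1, which blocks the EGFR kinase, stood at 24.7 and 24.3 RPKM, the receptor phosphatase PTPRF at 78.4 and 76.3 and the ubiquitin ligase CBLC at 11.4 and 12.5, while SPRED3 was at the floor. Of 22 immediate early genes and other pathway targets, transcripts that many kinases switch on, 19 were detected, with EGR1 at 21.4 and 20.9 RPKM and FOSL1 at the floor.

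The other ligands of the same receptors were detected in 13 of 30 cases (43.3%) and co-receptors in 5 of 13 (38.5%). The co-receptor list was led by GPC3, a heparan sulfate proteoglycan of fetal liver, at 459.9 and 461.8 RPKM, and SDC4, another one, at 64.7 and 63.1. Median levels were 0.562 RPKM for these ligands and 0.360 for co-receptors, beside 11.5 for ligand processing and 10.8 for adaptors and relay. They were 4.82 for feedback, 6.22 for immediate early genes and other targets, and 2.42 for all protein-coding genes. The values 0.562 and 0.360 each take in a gene listed as 0.1 in 1 library. They therefore say only that these medians lay under the detection limit of 1 RPKM. Of 25 receptor tyrosine kinases that the set leaves out 17 (68.0%) were detected, near the share of protein-coding genes, with a median of 4.61 RPKM. The highest were FGFR3 at 66.3 and 66.6, FGFR4 at 49.4 and 50.1 and FGFR1 at 41.2 and 40.9 RPKM, all above TYRO3.

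**Figure D5:**
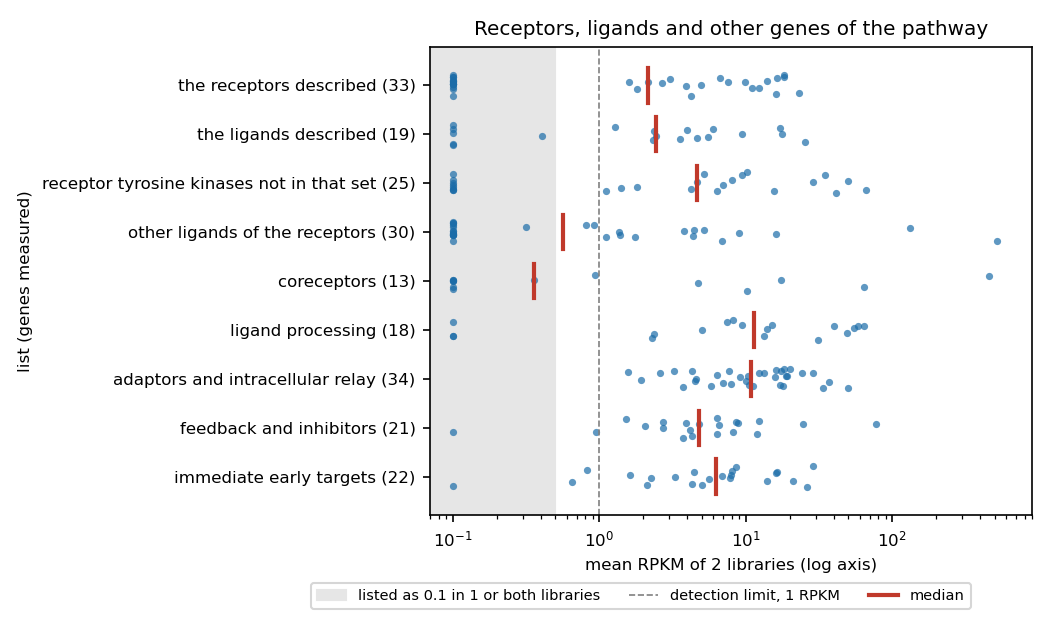
Mean RPKM of the 2 libraries (log axis) for each gene of the receptors and ligands described and of 7 lists around them, with the median in red and the number of genes measured in brackets. Adaptors lie wholly to the right of the detection limit, while 14 receptors, 5 ligands and several co-receptors are at the floor.

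Several of the genes lie side by side on a chromosome, and neighbours did not always share a level. PDGFRA, KIT and KDR follow each other on chromosome 4 with gaps of 359 and 338 kb and no other protein-coding gene between them, and all 3 were detected, PDGFRA 18.2, KIT 11.1 and KDR 1.61 RPKM on average. CSF1R and PDGFRB are 466 bp apart on chromosome 5, and CSF1R was at the floor beside PDGFRB at 2.14. FLT3 and FLT1 lie 199.8 kb apart on chromosome 13 and both were at the floor. LTK and TYRO3 lie 43.8 kb apart on chromosome 15, the first at the floor and the second the highest receptor. The EGF-like ligands EREG, AREG and BTC share a stretch of chromosome 4, and AREG alone was detected.

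Promoters were compared from the RefSeq table on GRCh38.p14, which gives 300 bases around a start and held 45 of the 52 genes. For a gene with several starts the one listed first was used. Promoters with at least 50% G and C and a CpG content of at least 0.6 of that predicted from their bases were called CpG-rich. Of 27 detected genes 23 (85.2%) had a CpG-rich promoter, and of 17 at the floor 6 (35.3%) did. Over all protein-coding genes the shares were 82.3% and 31.6%, so the contrast is not particular to these genes. DDR1, PDGFRA, AXL and PDGFRB were the 4 detected genes without one, while MST1R, FLT1, FLT3, RET, NTRK3 and TGFA had one and were at the floor. A CpG-rich and a CpG-poor example are shown, TYRO3 (chr15:41558962-41559261, plus strand, 49 CpG), the highest receptor, and HGF (chr7:81769998-81770297, minus strand, 7 CpG), the undetected ligand of MET, with each CG in capitals.
TYRO3: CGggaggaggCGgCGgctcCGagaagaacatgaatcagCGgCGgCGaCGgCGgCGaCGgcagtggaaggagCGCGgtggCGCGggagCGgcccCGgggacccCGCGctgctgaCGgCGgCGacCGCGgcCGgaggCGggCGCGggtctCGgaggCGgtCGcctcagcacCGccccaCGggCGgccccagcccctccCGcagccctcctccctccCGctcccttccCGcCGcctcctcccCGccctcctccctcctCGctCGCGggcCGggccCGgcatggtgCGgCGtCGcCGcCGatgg
HGF: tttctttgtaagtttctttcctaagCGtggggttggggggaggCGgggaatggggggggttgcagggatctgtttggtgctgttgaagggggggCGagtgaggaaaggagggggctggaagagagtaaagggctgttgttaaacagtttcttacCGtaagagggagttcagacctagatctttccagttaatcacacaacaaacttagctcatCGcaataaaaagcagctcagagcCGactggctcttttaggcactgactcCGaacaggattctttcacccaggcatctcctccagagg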

How the data were processed

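Poly(A) RNA of day 8 liver progenitors was sequenced as strand-specific dUTP libraries, per the labels' protocols. The deposited table gives 1 RPKM value for each gene and library, made by the authors, with values under 0.5 listed as 0.1. Cufflinks 2.2.0, STAR 2.3.0e and FastQC 0.10.1 appear without a role in the submitters' processing notes, and the series text has Sailfish and hg19. The tool behind the RPKM and the annotation release are not stated there. Identifiers were joined without version to GENCODE release 44 on GRCh37 (54428 of 57158, 95.2%), and each symbol took the identifier with the highest mean. Levels are log2(RPKM + 1). In the read step, 82.1% and 82.0% of single-exon values under 500 reads were whole within 0.02 of a read, and 701 of the 790 genes used to compare the libraries are pseudogenes. That comparison took genes with a mean of 50 reads or more. Other genes gave no whole reads, so no count model was used. The genes, pairs and lists were chosen with earlier results of these data known, so no list was tested. Every receptor and ligand may be named; of each pathway list, genes at 10 RPKM or its 5 highest, and up to 5 at the floor; of each marker list, the 3 highest and up to 5 at the floor. WNT5A, WNT5B, ANGPT1, NRTN, NELL2, INS, ALKAL1, ALKAL2, NRG2, NRG3, NRG4, EPGN, COL1A1, COL1A2, LUM and PROX1, the copies and the overlapping genes were named after their values were seen. PECAM1 and G6PC were not analysed here. Alternatives were single libraries, other limits and pseudocounts, and summed identifiers. Steps were tested on simulated data with Python 3.11.15, pandas 2.3.3 and numpy 2.4.6.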

Additional observations from a re-analysis of the deposited data

How the results depend on the processing

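Counts of detected genes stayed within 1.5 times at a limit of 0.5 RPKM, with either library alone and with identifiers of a symbol summed. At 5 RPKM, 17 of the 52 genes were left (11 receptors and 6 ligands) beside 35.4% of protein-coding genes, and 3 complete pairs, GAS6 with TYRO3, GAS6 with MERTK and PDGFA with PDGFRA. Median log2 levels moved with the pseudocount as those of all genes did. From 1.77 for all 52, 1.65 for receptors and 1.78 for ligands they fell to 1.32, 1.16 and 1.34 at a pseudocount of 0.1 and to 1.27, 1.10 and 1.29 at 0.01, beside 1.33 and 1.28 for protein-coding genes. Over genes above the floor in both libraries they were 2.75, 3.09 and 2.49, beside 2.78. With 1 library left out the median of the 52 genes ran from 1.75 to 1.80. The limits are the single group, libraries that differ little beyond counting, the floor at 0.5 RPKM and unknown strand use in the counting. Reads amplified by PCR are not independent molecules, so comparisons with counting error cover that error only.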
